A study of Homo sapiens with 4 samples.

Results

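The heat shock proteins and the co-chaperones that work with them were followed as 41 genes, taken by symbol from the 35993 genes in the deposited table, across 4 RNA-seq libraries of MDA-MB-231, a mesenchymal-like triple-negative human breast cancer cell line. A gene counted as measured when its mean read count over the 4 libraries was at least 10, which kept 40 of the 41 members and 16599 genes in all. The member that was not measured was CRYAB, a small heat shock protein of muscle and lens, with a count of 0 in each library. The libraries were siControl (a control siRNA, no kahweol), siControl+KW (the control siRNA, then the coffee diterpene kahweol at 50 µM for 48 h), siCTGF (an siRNA against CTGF, the secreted matricellular protein encoded by CCN2, no kahweol) and siCTGF+KW (both). All of them were kept in serum-free medium, kahweol was dissolved in DMSO, and no vehicle is named for the untreated wells. Each condition was 1 library, and 1 siRNA sequence stood for each arm.

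Heat shock proteins are molecular chaperones that hold unfolded proteins and help them to fold. HSP70 proteins bind short hydrophobic stretches and release them in a cycle driven by ATP, in which HSP40 proteins (the DNAJ genes) deliver clients and start the hydrolysis and BAG proteins exchange the nucleotide. HSP90 takes up nearly folded clients, such as kinases and steroid receptors, with the help of its own co-chaperones. Some of these genes are transcribed all the time and others mainly after heat or other proteotoxic stress, when the transcription factor HSF1 trimerizes and binds heat shock elements, which are inverted repeats of the unit nGAAn in promoters. Many cancer cells carry high levels of HSP70 and HSP90.

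The members were described by family: 11 HSP70 and HSP110 genes, 3 HSP90 genes, 9 HSP40 genes, 3 small heat shock proteins, the 2 mitochondrial chaperonins, 3 BAG genes, 8 other co-chaperones and 2 heat shock factors. They were also placed in a class of 19 genes taken as heat-inducible and a class of 22 genes taken as constitutive. Heat-inducible were HSPA1A, HSPA1B, HSPA4L, HSPA6, HSPH1, HSP90AA1, HSPB1, CRYAB, HSPD1, HSPE1 and BAG3. So were DNAJA1, DNAJA4, DNAJB1, DNAJB4, STIP1, AHSA1, CHORDC1 and FKBP4. All other members, HSPB8 among them, were put in the constitutive class. The classes were set with earlier results of these data known.

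RefSeq promoters (GRCh38.p14, 250 bases before to 50 bases after the start) were at hand for 35 of the 41 members, the others being FKBP4, HSPA14, STUB1, HSF1, ST13 and CRYAB. A heat shock element of 3 contiguous units (GAA, then NN, TTC, NN and GAA, or on the other strand TTC, NN, GAA, NN and TTC, with overlapping hits joined) was present in 5 of these 35 promoters (14.3%), against 172 of all 35116 promoters (0.49%). With at most 1 of the 9 fixed letters allowed to differ it was in 11 of 35 member promoters (31.4%) and in 6.24% of all promoters. The element is shown for 4 genes with a full match before the start and for the HSP70 pair HSPA1A and HSPA1B. HSF1, the best known regulator of this gene set, binds elements of this kind, and its binding was not measured here. The capitals mark the element.
CHORDC1, chr11:90223084-90223112, minus strand, 60 bases before the start: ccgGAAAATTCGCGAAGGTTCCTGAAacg
HSPA6, chr1:161524463-161524481, plus strand, 74 bases before the start: aggTTCGCGAAAGTTCgcg
HSPA8, chr11:123062351-123062369, minus strand, 230 bases before the start: cttGAAAGTTCCAGAAcgc
HSPA8, chr11:123062176-123062194, minus strand, 55 bases before the start: cccTTCTGGAAGGTTCtaa
DNAJB6, chr7:157336870-157336888, plus strand, 131 bases before the start: cgaGAACCTTCGCGAAggt
HSPA1A, chr6:31815434-31815452, plus strand, 106 bases before the start, 1 letter off: ctgGAATATTCCCGACctg
HSPA1B, chr6:31827630-31827648, plus strand, 105 bases before the start, 1 letter off: ctgGAATATTCCCGACctg

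The capitals of CHORDC1 run over 23 bases, since its element goes on beyond 3 units. HSPA1A and HSPA1B carry the same 19 letters at nearly the same distance from their starts. HSPA1L, which lies head to head with HSPA1A, has the bases of the HSPA1A element in its own window on the opposite strand. The full match of DNAJA1 lies after its start. A match is a description of letters, and a promoter without one is only a window that lacks these letters.

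The total count was 59129784 reads in siControl, 44781516 in siControl+KW, 51830429 in siCTGF and 47276653 in siCTGF+KW. Levels are given as CPM, counts scaled to the size of the library with TMM factors, or, where genes are compared with each other, as TPM, which also divides by transcript length. CCN2, the target of the siRNA, was at 158.9 CPM in siControl, 186.5 in siControl+KW, 63.6 in siCTGF and 31.8 in siCTGF+KW. The siCTGF libraries were thus lower than both siControl libraries, with log2 fold changes of -1.32 without kahweol and -2.55 with it. The additive fit over all 4 libraries gave -1.93 ± 0.25 (SE), which did not pass the threshold (quasi-likelihood test of edgeR, Benjamini-Hochberg adjusted p = 0.055). Of the line's markers, the 5 that should be high were at 92.0 TPM or more in each library, with VIM at 2082 to 2819 TPM and the estrogen receptor gene ESR1 at 0 to 0.028 TPM. CDH1, the epithelial cadherin, was at 2.28 to 4.29 TPM, and EPCAM, another epithelial marker listed as low, was at 23.2 to 39.0 TPM. The leukocyte and endothelial markers PTPRC, CD3E, PECAM1 and VWF stayed at or below 0.307 TPM, while CD68, which other cells also carry, was at 42.0 to 59.0 TPM.

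As a group the 40 genes took 1.23% of all counts in siControl, 1.95% in siControl+KW, 1.35% in siCTGF and 2.05% in siCTGF+KW. Their summed TPM went from 9706 to 14462 with kahweol in siControl cells (1.49-fold) and from 10416 to 14707 in siCTGF cells (1.41-fold). The sum was led by few genes. HSPA8 was at 2549 TPM and HSP90AB1 at 2380 TPM in siControl, ahead of HSPD1 at 528 TPM, STIP1 at 402 TPM and HSPA9 at 350 TPM, and the lowest measured members were HSPA6 at 1.74 TPM and HSPA1L at 0.91 TPM. With kahweol, HSPA8 moved from rank 33 to rank 12 among all genes by TPM in siControl cells and from rank 22 to rank 12 in siCTGF cells. In bulk RNA, more transcript per cell and a change in the mix of cells cannot be told apart. The share of counts from mitochondrial ribosomal RNA was also higher with kahweol, 3.94% in siControl, 4.33% in siControl+KW, 3.11% in siCTGF and 6.01% in siCTGF+KW, and its part in the members' values was not tested.

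**Figure D1:**
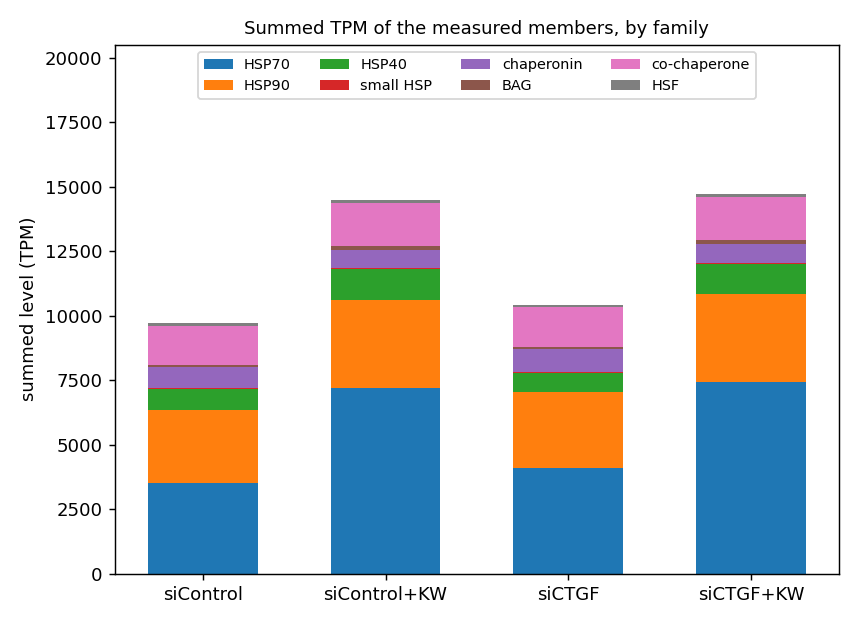
Stacked bars, starting at 0, of the summed TPM (vertical axis) of the measured members of each family in each of the 4 libraries. The HSP70 segment goes from 3503 to 7194 TPM with kahweol in siControl cells and from 4082 to 7437 TPM in siCTGF cells, while the chaperonin segment goes from 788 to 684 TPM and from 868 to 709 TPM.

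The first question was how kahweol changed these genes. In the additive fit, which sets the 2 kahweol libraries against the 2 untreated ones with the siRNA as a covariate and calls a gene at an adjusted p under 0.05, 26 of the 40 measured members were higher with kahweol and 5 were lower. Over all 16599 genes, 22.9% were called higher and 23.6% lower, so the members lay above the background on the higher side and below it on the lower side. The calls rest on 1 residual degree of freedom, take any interplay of siRNA and kahweol as noise, and measure only the spread between these libraries. Each siRNA arm was also read alone. In siControl cells 23 members were over 1.3-fold higher, where 28.1% of all genes were, and 2 were under 0.7-fold, where 26.3% were. In siCTGF cells these were 24 members, against 28.4% of genes, and 2 members, against 24.2% of genes. Those 2 pairs share no library. Over 1.3-fold in both were 23 members, against 20.7% of genes, and under 0.7-fold in both were 2, STUB1 and TRAP1, against 18.2% of genes. The sign was the same in both arms for 39 of 40 members (97.5%), the other being DNAJA4, and for 82.9% of all genes. All genes reach down to a mean count of 10, where a sign is less certain, and were not matched to the members by count. The members' median log2 fold change was 0.49 in siControl cells and 0.66 in siCTGF cells, beside -0.02 and 0.00 over all genes.

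**Figure D2:**
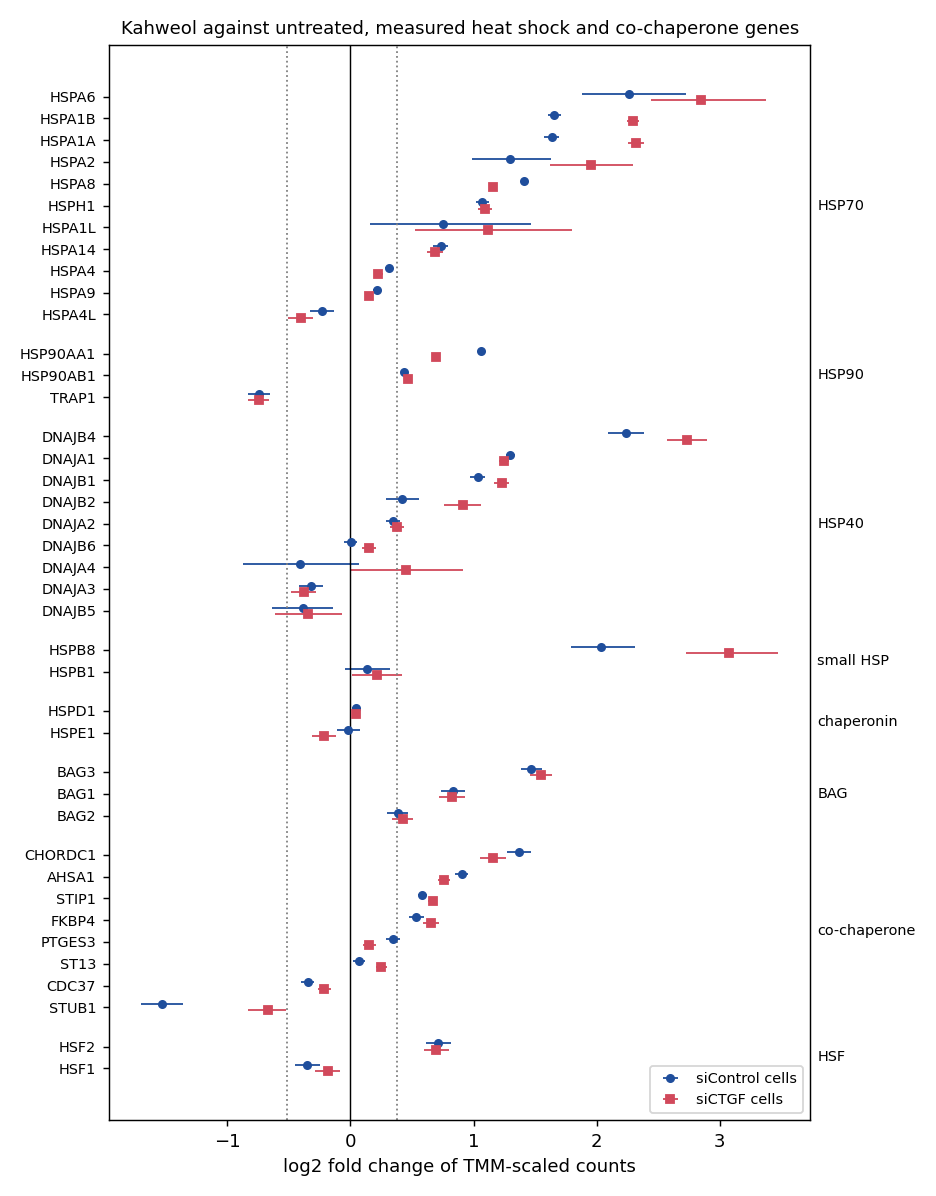
Log2 fold change with kahweol (horizontal axis, TMM-scaled counts) of the 40 measured members, by family, in siControl cells (blue circles) and siCTGF cells (red squares); bars are 95% counting intervals, and dotted lines mark 1.3-fold and 0.7-fold. Most HSP70, HSP40, BAG and co-chaperone genes lie to the right of 0 in both arms, HSPB8 reaches 3.07 in siCTGF cells, and STUB1 lies at -1.53 in siControl cells.

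The stress-inducible HSP70 genes rose with kahweol in both arms. HSPA1A (gene ID 3303, GRCh37 chr6:31783320-31785719), which encodes the main heat-inducible HSP70, was at 94.9 CPM in siControl, 295 in siControl+KW, 88.8 in siCTGF and 443 in siCTGF+KW. HSPA1B (3304, chr6:31795515-31798031), a near copy that encodes the same protein, was at 157, 495, 150 and 737 CPM in that order. Both kahweol libraries lay above both untreated ones for each gene, and siCTGF+KW was the highest of the 4. The fitted log2 fold change was 1.98 ± 0.15 for HSPA1A (edgeR adjusted p = 8.37e-05) and 1.98 ± 0.14 for HSPA1B (edgeR adjusted p = 6.77e-05). Of the 100-base windows of the HSPA1A transcript, 69.9% occur also in another gene's transcript, mainly HSPA1B, so the counts of either copy alone are uncertain. HSPA1B took 62.3 to 62.8% of the pair's counts in every library, and the pair summed gave 252, 790, 239 and 1181 CPM, with a fitted log2 fold change of 1.98 ± 0.14 (edgeR adjusted p = 7.76e-05).

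HSPA6 (3310, chr1:161494330-161496684), an HSP70 gene that is nearly silent without stress and whose element is printed above, was at 2.00, 9.73, 1.72 and 12.6 CPM in siControl, siControl+KW, siCTGF and siCTGF+KW. Its level stayed low in absolute terms, at 7.26 and 8.88 TPM with kahweol, while its log2 fold change of 2.57 ± 0.24 was the largest of the members (edgeR adjusted p = 0.000158). The near-identical pseudogene HSPA7 shares 27.6% of its windows and was itself at 0.48, 1.23, 0.31 and 1.69 CPM. HSPA1L, a testis-enriched HSP70 that lies beside HSPA1A, was at 1.23, 2.11, 1.26 and 2.77 CPM, and its log2 fold change of 0.96 ± 0.36 did not pass (edgeR adjusted p = 0.064).

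HSPA8 (3312, chr11:122928197-122932844), the constitutive cytosolic HSP70 that also drives the uncoating of clathrin vesicles and chaperone-mediated autophagy, carried most of the family's transcripts. It was at 2793 CPM in siControl, 7419 in siControl+KW, 3560 in siCTGF and 7949 in siCTGF+KW, and its share of all counts was 0.295, 0.715, 0.372 and 0.746%. The kahweol libraries stood well above the others, with a fitted log2 fold change of 1.28 ± 0.07 (edgeR adjusted p = 3.88e-05), 1.41 in siControl cells and 1.16 in siCTGF cells. Per length, the sum of HSPA1A and HSPA1B was 0.082 of HSPA8 in siControl, 0.097 in siControl+KW, 0.061 in siCTGF and 0.136 in siCTGF+KW. HSPA8 was thus still the main cytosolic HSP70 transcript in each library.

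HSPA2, an HSP70 gene known for its role in the testis, also rose, from 4.19 to 10.4 CPM in siControl cells and from 3.60 to 14.1 CPM in siCTGF cells (log2 1.63 ± 0.21). HSPA14, a ribosome-associated HSP70, went from 135 to 225 CPM and from 137 to 221 CPM (log2 0.71 ± 0.07). The HSP110 genes, whose products exchange the nucleotide of HSP70, did not move as one. HSPH1 went from 152 to 320 CPM and from 154 to 329 CPM (log2 1.08 ± 0.07, edgeR adjusted p = 6.34e-05). HSPA4 rose less, from 462 to 575 CPM and from 501 to 586 CPM (log2 0.27 ± 0.06, edgeR adjusted p = 0.010), and scaling by TPM turned its sign in siCTGF cells. HSPA4L fell, from 72.3 to 61.6 CPM and from 71.4 to 53.9 CPM (log2 -0.32 ± 0.10, edgeR adjusted p = 0.032). HSPA9, the mitochondrial HSP70, was called higher at log2 0.18 ± 0.06 (edgeR adjusted p = 0.039), but its TPM was slightly lower with kahweol, 347 against 350 in siControl cells and 339 against 366 in siCTGF cells. The call of HSPA9 was lost with DESeq2 (adjusted p = 0.075), total counts, no filter and no covariate. In all, 9 of the 11 genes of the family were called higher, 1 was called lower and 1 did not pass. Of all genes, 22.9% were called higher and 23.6% lower. The family's median log2 fold changes were 1.07 in siControl cells and 1.12 in siCTGF cells. The summed TPM of the family was 2.05-fold and 1.82-fold higher.

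**Figure D3:**
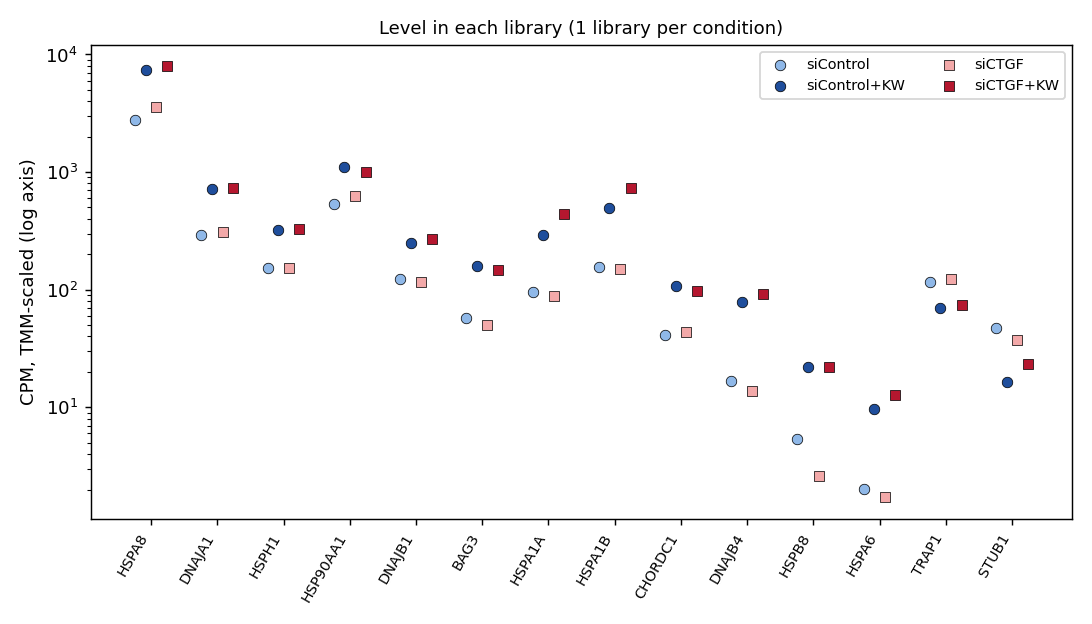
CPM on a log axis of 14 members in each library, 1 point per library, with siControl in light blue, siControl+KW in dark blue, siCTGF in light red and siCTGF+KW in dark red. The 14 genes were picked for display, most of them with large changes, and members that moved little, such as HSPD1 and DNAJB6, are left out. In the first 12 genes both kahweol points lie above both untreated points, and in TRAP1 and STUB1 both lie below them. The share of all genes that separate in this way was not counted.

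Among the HSP40 genes, the change was spread from strong to none. DNAJB4 (11080, chr1:78444842-78483648), a cytosolic HSP40 close to DNAJB1, was at 16.8 CPM in siControl, 79.1 in siControl+KW, 13.8 in siCTGF and 91.9 in siCTGF+KW. The kahweol libraries did not overlap the untreated ones, and the log2 fold change was 2.48 ± 0.13 (edgeR adjusted p = 4.03e-05). DNAJB1, the classical heat-inducible HSP40 that works with HSP70 in taking apart protein aggregates, was at 123, 252, 116 and 272 CPM in the same order (log2 1.13 ± 0.08, edgeR adjusted p = 7.37e-05). Per length, DNAJB4 was 0.107 of DNAJB1 in siControl and 0.244 in siControl+KW, and 0.091 and 0.265 in the siCTGF libraries. DNAJA1, a farnesylated HSP40 of the cytosol, was at 293, 721, 310 and 737 CPM (log2 1.27 ± 0.06, edgeR adjusted p = 3.19e-05), and its 2 kahweol libraries were nearly equal. DNAJA2, its housekeeping relative, rose less, at 179, 228, 191 and 248 CPM (log2 0.36 ± 0.07), and DNAJB2, an HSP40 that binds ubiquitin and is best known in neurons, was at 29.6, 39.7, 22.0 and 41.4 CPM (log2 0.67 ± 0.13). DNAJA3, the mitochondrial HSP40, fell from 74.5 to 59.8 CPM and from 74.1 to 57.0 CPM (log2 -0.35 ± 0.09, edgeR adjusted p = 0.019). DNAJB6, a suppressor of aggregation whose promoter holds a full element, was at 237, 237, 192 and 213 CPM and did not pass (log2 0.08 ± 0.08). DNAJB5 at 12.3, 9.40, 10.5 and 8.27 CPM and DNAJA4 at 3.67, 2.76, 2.86 and 3.94 CPM did not pass either. DNAJA4 was the member with opposite signs in the arms, -0.41 in siControl cells and 0.46 in siCTGF cells, where the counting interval crosses 0 in siControl cells and barely leaves it in siCTGF cells. The family had 5 of 9 genes called higher and 1 called lower, beside 22.9% and 23.6% of all genes.

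The HSP90 genes split by compartment. HSP90AA1, the inducible cytosolic HSP90, was at 530 CPM in siControl, 1109 in siControl+KW, 623 in siCTGF and 1008 in siCTGF+KW (log2 0.88 ± 0.09, edgeR adjusted p = 0.000244). HSP90AB1, the constitutive form and the second most abundant member, rose less, at 2949, 3987, 3168 and 4392 CPM (log2 0.45 ± 0.05, edgeR adjusted p = 0.000382). The HSP90AA1 transcript was 0.142 of HSP90AB1 per length in siControl and 0.220 in siControl+KW, and 0.156 and 0.181 in the siCTGF libraries. TRAP1, the HSP90 of mitochondria, fell in both arms, at 116, 69.3, 124 and 73.9 CPM (log2 -0.74 ± 0.09, edgeR adjusted p = 0.000448). Its log2 fold change was -0.74 in siControl cells and -0.75 in siCTGF cells.

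Of the mitochondrial members, HSPD1 and HSPE1, the HSP60 and HSP10 chaperonin subunits encoded head to head on chromosome 2, did not pass the test. HSPD1 was at 574, 593, 664 and 686 CPM (log2 0.05 ± 0.06) and HSPE1 at 70.2, 69.4, 79.2 and 68.3 CPM (log2 -0.12 ± 0.10). On the TPM scale both were lower with kahweol in each arm. Of the 5 mitochondrial members TRAP1 and DNAJA3 were called lower and HSPA9 higher, but by TPM all 5 were lower with kahweol in both arms. The TPM scale lowers most genes here. With log2(TPM + 1) the median over all genes was itself -0.17 in siControl cells and -0.18 in siCTGF cells with kahweol. About 33.5% of the windows of HSPE1 are shared with other transcripts. HSPD1, its more abundant neighbour on the opposite strand, holds 16.5% of the windows. Another is the read-through gene HSPE1-MOB4, which was itself at 1.94, 4.12, 3.59 and 7.93 CPM.

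The 2 measured small heat shock proteins differed. HSPB8 (26353, chr12:119616595-119632551), which forms a complex with BAG3 that hands aggregates to autophagy, was at 5.39 CPM in siControl, 22.2 in siControl+KW, 2.59 in siCTGF and 22.1 in siCTGF+KW. The 2 kahweol libraries were level, far above the others, and the log2 fold change was 2.54 ± 0.24 (edgeR adjusted p = 0.000188). HSPB1, which encodes HSP27 and is often abundant in breast cancer cells, was at 18.6, 20.5, 15.4 and 17.8 CPM and did not pass (log2 0.18 ± 0.11).

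All 3 BAG genes were called higher, beside 22.9% of all genes. BAG3 (9531, chr10:121410882-121437331), the HSP70 partner that directs clients to autophagy and is itself heat-inducible, was at 57.2 CPM in siControl, 158 in siControl+KW, 50.1 in siCTGF and 147 in siCTGF+KW (log2 1.51 ± 0.09, edgeR adjusted p = 5.31e-05). BAG1, which links HSP70 to the proteasome, was at 47.7, 85.0, 46.9 and 82.9 CPM (log2 0.83 ± 0.09, edgeR adjusted p = 0.000385). The ratio of BAG3 to BAG1 per length was 1.78 in siControl and 2.77 in siControl+KW, and 1.59 and 2.63 in the siCTGF libraries. BAG2, an inhibitor of the ubiquitin ligase STUB1, was at 76.4, 99.7, 75.6 and 102 CPM (log2 0.41 ± 0.09, edgeR adjusted p = 0.0078). Of its windows 41.9% also occur in RAB23, a gene on the opposite strand that was at 31.4, 30.5, 32.2 and 28.5 CPM, and the strand setting of the counting is not given in the sources used here.

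Of the 8 other co-chaperones, which serve HSP90, HSP70 or both, 5 were called higher and 2 lower, beside 22.9% and 23.6% of all genes. CHORDC1, a zinc-binding HSP90 partner that carries the longest element shown above, was at 41.3 CPM in siControl, 107 in siControl+KW, 44.1 in siCTGF and 98.2 in siCTGF+KW (log2 1.26 ± 0.10, edgeR adjusted p = 0.000105). AHSA1, the activator of the HSP90 ATPase, was at 156, 291, 192 and 326 CPM (log2 0.83 ± 0.08). STIP1, the adaptor called HOP that passes clients from HSP70 to HSP90, was at 418, 626, 412 and 654 CPM (log2 0.63 ± 0.06). FKBP4, the immunophilin of steroid receptor complexes, was at 131, 190, 126 and 199 CPM (log2 0.60 ± 0.08), and these 3 genes were higher in both kahweol libraries than in both untreated ones. PTGES3, the p23 protein that stabilizes the closed form of HSP90, was called at a small size (log2 0.25 ± 0.08, edgeR adjusted p = 0.034), with a TPM of 199, 201, 206 and 194, and that call was lost with total counts (edgeR adjusted p = 0.335), without the filter and without the covariate. CDC37, which brings kinases to HSP90, fell from 245 to 193 CPM and from 252 to 218 CPM (log2 -0.28 ± 0.07, edgeR adjusted p = 0.017). ST13, the HSP70-interacting protein HIP, did not pass (log2 0.16 ± 0.07).

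STUB1 (10273, chr16:730410-732801), the ubiquitin ligase CHIP that marks clients of HSP70 and HSP90 for degradation, had the lowest fitted value of the members. In siControl cells it also fell most, while in siCTGF cells TRAP1 did. It was at 47.3 CPM in siControl, 16.4 in siControl+KW, 37.0 in siCTGF and 23.2 in siCTGF+KW, so that both kahweol libraries lay below both untreated ones. The log2 fold change was -1.10 ± 0.18 (edgeR adjusted p = 0.0022), -1.53 in siControl cells and -0.67 in siCTGF cells. The gene overlaps JMJD8 on the opposite strand over 1132 bases, and 21.2% of its windows occur in that gene's transcripts. JMJD8 was at 35.0, 21.3, 34.2 and 23.5 CPM, lower with kahweol as well, and its part in the STUB1 value was not tested.

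Of the heat shock factors, HSF2 rose and HSF1 did not pass. HSF1, the factor that drives the heat shock response and is mainly controlled after translation, was at 71.2, 55.9, 68.7 and 60.5 CPM and did not pass (log2 -0.27 ± 0.10, edgeR adjusted p = 0.060). HSF2, its relative with which it can form mixed trimers, was at 50.1, 82.3, 50.0 and 81.0 CPM (log2 0.71 ± 0.09, edgeR adjusted p = 0.000759).

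Set by class, 13 of the 18 measured heat-inducible members were called higher with kahweol and 1, HSPA4L, lower. Their median log2 fold change was 1.05 in siControl cells and 0.93 in siCTGF cells. With HSPA1A and HSPA1B summed to 1 gene, it was 1.03 in siControl cells and, at the value of AHSA1, 0.76 in siCTGF cells. Of the 22 constitutive members 13 were called higher and 4 lower (TRAP1, DNAJA3, CDC37 and STUB1), with medians of 0.35 and 0.32. The counts of both classes stand beside 22.9% of all genes called higher and 23.6% called lower. The medians of the constitutive class depended on the scaling, at 0.21 and 0.16 with total counts and 0.10 and 0.05 with log2(TPM + 1). Those of the heat-inducible class were 0.92 and 0.77 with total counts and 0.81 and 0.66 with log2(TPM + 1). In summed TPM the classes were closer together, mainly through 1 gene, HSPA8. The heat-inducible sum went from 2638 to 3972 TPM in siControl cells and from 2737 to 4103 TPM in siCTGF cells. The constitutive sum went from 7068 to 10490 TPM (1.48-fold) and from 7679 to 10604 TPM (1.38-fold). Most of that rise was HSPA8, which went from 2549 to 5777 TPM in siControl cells and from 3124 to 5822 TPM in siCTGF cells. Among the 24 promoters on file of members called higher, 4 held a full heat shock element (16.7%), and none of the 4 of members called lower did. With 1 letter allowed to differ, the shares were 8 of 24 (33.3%) for members called higher, none of 4 for members called lower and 3 of 7 (42.9%) for members that did not pass.

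Other genes of the chaperone system were counted from lists that are no members, and their counts stand beside the 22.9% of all genes called higher and the 23.6% called lower. Of the 8 subunits of the cytosolic chaperonin CCT, which folds actin and tubulin, 1 was called higher with kahweol, TCP1 at log2 0.19, and none was called lower. Of the 6 prefoldin genes, whose products deliver clients to CCT, 2 were called higher, PFDN4 and PFDN2, and none lower. Of 14 measured further HSP90 co-chaperones 7 were called higher and 1 lower, with FNIP1 at log2 1.06 and TTC4 at log2 1.03 in front. Of 25 further HSP70 co-chaperones 8 were called higher and 5 lower. DNAJB9, an HSP40 of the endoplasmic reticulum, was at 9.25, 49.8, 9.02 and 49.7 CPM (log2 2.44 ± 0.10) and DNAJC2, an HSP40 of the ribosome, at 16.8, 47.4, 16.9 and 54.4 CPM (log2 1.59 ± 0.10). Of 20 measured regulators of HSF1 and other genes known to respond to heat, 14 were called higher and 1 lower. FOS, an immediate early transcription factor, was at 4.99, 40.0, 5.56 and 52.0 CPM (log2 3.11 ± 0.12), SQSTM1, the autophagy receptor p62, at 762, 3205, 789 and 3664 CPM (log2 2.14 ± 0.06), and ZFAND2A, an arsenite-inducible proteasome partner, at 14.8, 53.3, 15.6 and 64.4 CPM (log2 1.95 ± 0.10).

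The second question was what lowering CTGF did to these genes. In the additive fit no member was called in either direction, where 0.0663% of all genes were called higher and 0.0602% lower. Before adjustment, at p under 0.05, edgeR gave 5 members above 0 (HSPD1, HSPA8, AHSA1, ST13 and HSP90AB1) and 1 below it (DNAJB6), with 4 and 1 by DESeq2, 6 and 1 by limma-voom and none by edgeR without the covariate. Over all genes edgeR gave 5.13% above and 4.78% below 0 at that p. None of these members passed after adjustment. The fitted log2 fold changes of those 6 genes ran from -0.23 for DNAJB6 to 0.23 for AHSA1 and ST13. The error was largest where counts were low, 0.36 for HSPA1L and 0.31 for DNAJA4, and HSPB8 was at -0.47 ± 0.23.

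**Figure D4:**
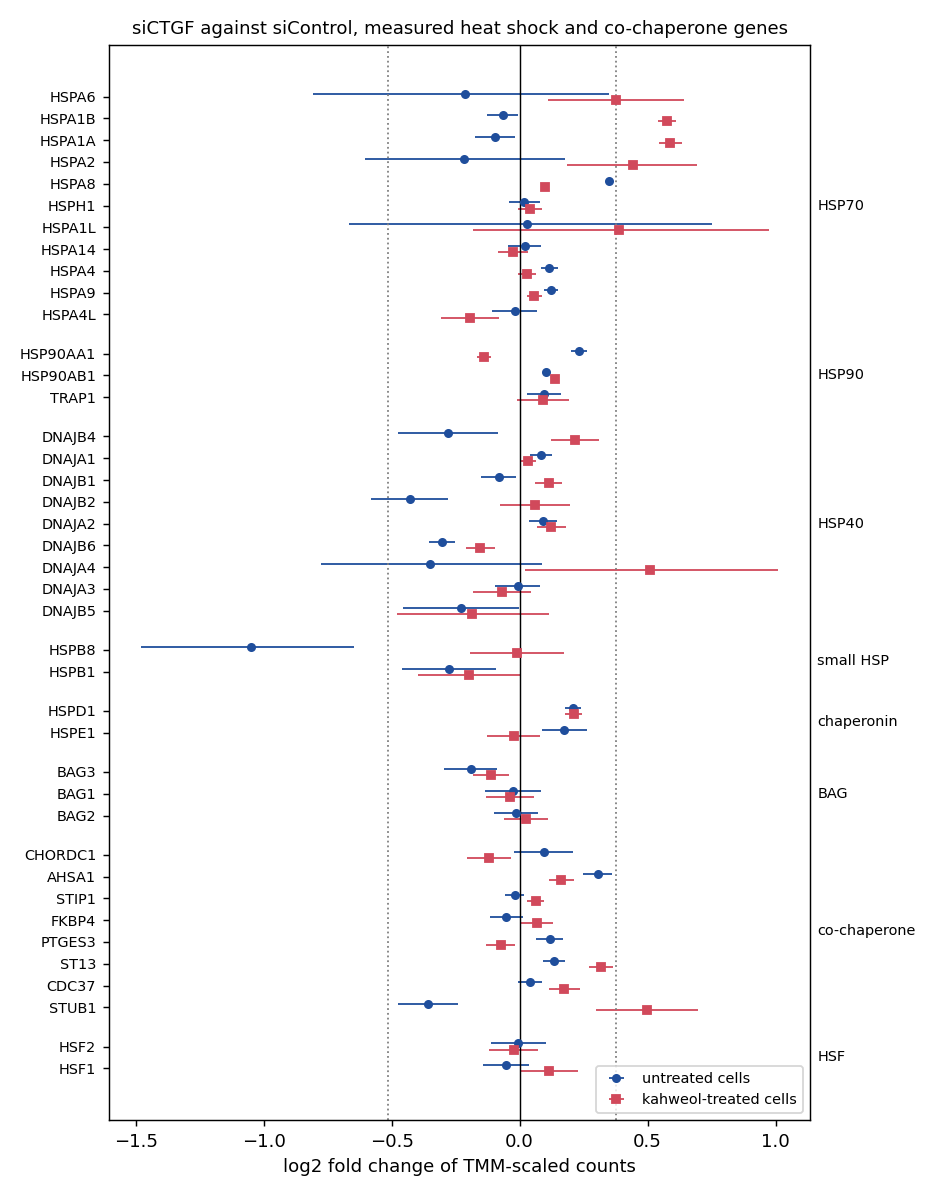
Log2 fold change of siCTGF against siControl (horizontal axis, TMM-scaled counts) of the 40 measured members, by family, in untreated cells (blue circles) and kahweol-treated cells (red squares); bars are 95% counting intervals, and dotted lines mark 1.3-fold and 0.7-fold. Most points lie between the dotted lines, apart from HSPB8 at -1.05 in untreated cells and 6 members over 1.3-fold in kahweol-treated cells.

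Library against library, without a test, no member was over 1.3-fold higher in siCTGF than in siControl cells left untreated, against 9.63% of all genes, and 1 was under 0.7-fold, against 8.99%. That gene was HSPB8, at 2.59 against 5.39 CPM, or -1.05 on the log2 scale (95% counting interval -1.48 to -0.65). With kahweol its 2 libraries were level, at 22.1 against 22.2 CPM (log2 -0.01). In kahweol-treated cells 6 members were over 1.3-fold higher with siCTGF, a share close to the 14.7% of all genes, and none was under 0.7-fold, against 7.83%. Those 6 were HSPA1A, HSPA1B, HSPA1L, HSPA2, DNAJA4 and STUB1, of which HSPA1L and DNAJA4 were at or below 3.94 CPM in all libraries. In neither direction was any member past the fold in both pairs, where 3.25% of genes were over 1.3-fold and 2.24% under 0.7-fold.

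For the inducible HSP70 pair, siCTGF was slightly below siControl without kahweol and clearly above it with kahweol. In untreated cells HSPA1A was at -0.09 on the log2 scale (counting interval from -0.17 up to -0.02) and with kahweol at 0.59 (from 0.54 up to 0.64). HSPA1B was at -0.06 in untreated cells, with an interval that barely leaves 0 (from -0.125 up to -0.005), and at 0.57 with kahweol. Summed, the pair was at 239 against 252 CPM without kahweol and at 1181 against 790 CPM with it. The library with the highest value of the pair, siCTGF+KW, was also the one with the highest share of mitochondrial ribosomal RNA, whose part in this was not tested. Opposite signs with both counting intervals off 0 were seen in 7 members and in 6.09% of all genes, and intervals are narrower for genes with more reads. HSPA6 and HSPA2 had the same order of values, -0.21 and 0.38 for HSPA6 and -0.22 and 0.44 for HSPA2, with counting intervals that include 0 in untreated cells. HSP90AA1 went the other way, 0.23 in untreated cells and -0.14 with kahweol. HSPA8 was higher with siCTGF in both, at 0.35 and 0.10. The median over all members was -0.01 in untreated cells and 0.06 with kahweol, beside -0.01 and 0.00 over all genes. The counting intervals cover the drawing of reads only, not the spread between cultures, which 1 library per condition does not show.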

How the data were processed

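MDA-MB-231 RNA was sequenced in 4 libraries, 1 per condition, grouped by the sample labels. Per the labels and methods, the authors trimmed reads with Trimmomatic 0.38, aligned them with HISAT2 2.1.0 to GRCh37.p13 and quantified genes with StringTie 2.1.3b, without pooling. The deposited table holds raw read counts, FPKM and TPM per gene. The deposited per-sample tables give coverage, a signal from which it was checked that 1 count is about 1 read (103.7 to 105.7 bases per count), so intervals treat 2 reads as 1 fragment. FPKM values were not tested.

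Counts of the 16599 genes with a mean of at least 10 were fitted with edgeR 4.0.16 (R 4.3.3, quasi-likelihood, TMM, additive in siRNA and kahweol, 1 residual degree of freedom), with Benjamini-Hochberg adjustment over all of them. Both effects were fitted on all 4 libraries. The SE of a fitted value was not estimated directly. It is the absolute log2 fold change divided by the square root of the F statistic of the quasi-likelihood test. Single pairs of libraries have log2 fold changes (prior count 2) with 95% exact Clopper-Pearson intervals and no test, read against folds of 1.3 and 0.7. On simulated data the kahweol fit called 98.5% of genes changed by log2 2, 85.1% of those changed by log2 1 and 40.9% of those changed by log2 0.58, with 5.06% of calls false. For the siCTGF fit these were 91.0%, 86.6%, 50.0% and 6.75%. The simulation gave every gene the same spread and changed 66 or 67 genes per size, a single effect at a time. It held no interplay of siRNA and kahweol. These rates need not hold in the data, where many more genes were called with kahweol and CCN2 was not called for siCTGF. Alternatives were DESeq2 1.42.0, limma 3.58.1 (voom), other scalings, filters, prior counts, folds and offsets to TPM, no covariate, and the HSPA1 pair summed. Scaling by total counts moved the median of all genes by -0.15 in both kahweol pairs, and its kahweol calls over all genes were 2880 higher and 5162 lower (35.8% higher), where TMM gave 3805 and 3922 (49.2% higher). With log2(TPM + 1) the median of all genes was -0.17 in the siControl pair and -0.18 in the siCTGF pair.

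Every member is named. Of each list of related genes at most 4 genes are, called ones first, then those with the larger change, judged by the smaller of the 2 pairs (mean count of at least 50), with 2 exceptions that are named as such. The members and lists were chosen with earlier results of these data known. Shared windows were counted on GENCODE 29 transcripts. Promoters came from RefSeq.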

Additional observations from a re-analysis of the deposited data

Results flagged for a closer look

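For 7 members the siCTGF libraries lay on opposite sides of the siControl libraries without and with kahweol, each with a 95% counting interval off 0 in both, which held for 6.09% of all 16599 genes. The difference itself was not tested, since each condition holds 1 library. The siCTGF log2 fold change with kahweol minus that without it was 0.68 for HSPA1A, 0.64 for HSPA1B and 0.49 for DNAJB4, whose kahweol log2 fold changes were 2.24 in siControl cells and 2.73 in siCTGF cells. It was 0.85 for STUB1, which was at -0.36 without kahweol and 0.50 with it. Smaller values were seen for DNAJB1 (0.19), PTGES3 (-0.19) and HSP90AA1 (-0.37). HSPA1A and HSPA1B share most of their sequence and are not 2 separate cases. Scaling by the DESeq2 size factors or total counts, and log2(TPM + 1), left both signs of all 7 genes as they were.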

How the results depend on the processing

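Replicates could not be paired, because each condition holds 1 library and the labels number no replicates. The main fit sets kahweol against untreated within each siRNA arm, and without that covariate 24 members were higher and 4 lower. Leaving out a library would leave the additive fit no residual degree of freedom. The count of members called with kahweol was 31 and ran from 28 to 33 over the alternatives (23 higher and 7 lower with total counts), and the additive fit turned the sign of no called member. HSPD1, DNAJB6 and DNAJA4, which were not called, did so with total counts. HSPA9 was not called by DESeq2 (adjusted p = 0.075), with total counts (0.667), without the filter (0.061) or without the covariate (0.11). PTGES3 was not called with total counts (0.335), without the filter or without the covariate, HSPA4 not with total counts (0.178) and HSPA4L not without the covariate (0.051). HSPA1L and HSF1 were called by limma-voom (0.040 and 0.037) and with a mean count of at least 50. Total counts added HSF1 and DNAJB5. For the siCTGF effect no member was called by any alternative; over all genes, edgeR without the covariate gave 25 above and 22 below 0 at p under 0.05 before adjustment. With folds of 2 and 0.5 in place of 1.3 and 0.7, the members past the fold were 14 in place of 25 for kahweol in siControl cells, 13 in place of 26 in siCTGF cells and 0 in place of 6 for siCTGF with kahweol, the last being 2 with log2(TPM + 1). The class medians under other scalings stand beside the class result. HSPD1, DNAJB6, ST13, HSPB1, HSPA9, HSPA4 and PTGES3 turned sign in at least 1 pair of single kahweol and untreated libraries with total counts or TPM.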

Other observations

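The counterparts of these chaperones in other compartments were also measured. Of 6 genes, 4 were called higher with kahweol and 2 lower, beside 22.9% and 23.6% of all genes. HSPA5, the HSP70 of the endoplasmic reticulum and the main sensor partner of the unfolded protein response, was at 103 CPM in siControl, 359 in siControl+KW, 143 in siCTGF and 304 in siCTGF+KW (log2 1.45 ± 0.15, edgeR adjusted p = 0.000264). HSP90B1, the HSP90 of that compartment, was at 548, 975, 545 and 946 CPM (log2 0.81 ± 0.06) and HYOU1, its HSP110, at 231, 356, 207 and 335 CPM (log2 0.66 ± 0.07). CLPX, a mitochondrial unfoldase, was at 70.8, 132, 68.8 and 130 CPM (log2 0.91 ± 0.09), while the proteases CLPP and LONP1 of the same compartment, chosen after their values were seen, were called lower at log2 -0.55 and -0.40.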
